A study of Mus musculus with 4 samples.

Results

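Activated Cxcl2/Acod1 neutrophils were described in single-cell RNA libraries from healing tibial fractures of old mice. A barcode counted as one when it held at least 1 UMI (unique molecular identifier, 1 captured RNA molecule) of Csf3r, the receptor for the granulocyte growth factor G-CSF, and at least 5 UMIs of Cxcl2 and Acod1 together. It also had to hold no UMI of the macrophage receptor gene Csf1r, at most 1 UMI of C1qa, C1qb, C1qc and Fn1 together, and fewer than 100 UMIs per 10000 of the secondary granule genes Camp, Ngp and Ltf. The members were thus chosen by measured UMIs of these genes. Of 33698 kept barcodes, each with at least 200 genes and under 10% mitochondrial UMIs, 2550 met this rule. Barcodes that met every condition except the one on Cxcl2 and Acod1 formed the comparison class and are called the other mature neutrophils.

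Neutrophils are short-lived phagocytes that leave the marrow with preformed granules and enter injured tissue early. There, signals through Toll-like receptors, the IL-1 receptor and TNF receptors activate NF-kappaB, and the cells begin to transcribe chemokines and cytokines of their own. Cxcl2 encodes a ligand of the neutrophil receptor CXCR2 and so draws in more neutrophils, and Acod1 encodes the mitochondrial enzyme that makes itaconate from cis-aconitate.

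The animals were male C57BL/6J mice aged 20 months, and callus cells were collected 7 days after treatment. The libraries adenosine 1 and adenosine 2 came from fractures treated with an adenosine-carrying microgel, and control 1 and control 2 from fractures given the control material. The labels record bone marrow as the tissue, while the titles and protocol speak of callus. They do not say whether a library is 1 animal or a pool, so a p-value between treatments covers the spread between 2 libraries per group, which may be technical. Values of the 4 libraries follow the order adenosine 1, adenosine 2, control 1, control 2. CPM means the UMIs of a gene per 1000000 UMIs of the summed class in a library.

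Libraries held 6753 to 9949 barcodes and 32277757 to 68117846 UMIs. Control 2 stood apart: it was the shallowest library, and it held 2369 of the 2550 members, or 92.9%. The other 3 libraries held 55, 45 and 81 members, whose summed UMIs came to 152936, 104184 and 202676, against 7773008 in control 2. The list counts and calls that changed most without control 2 are given without it too. Each pair of libraries shared 13 to 28 barcodes, and 0 shared barcodes were members in both. The median depth was 2300, 2292, 2409 and 2839 UMIs in members and 2264, 2270, 2269 and 2399.5 UMIs in the other mature neutrophils.

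The label was checked against 12 neutrophil markers, among them S100a8, S100a9 and Retnlg, which summed to 70709, 156559.5, 96563 and 111079.5 CPM in members. In the other mature neutrophils they summed to 116860, 121371, 152146 and 131738 CPM, so members were lower in every library except adenosine 2. The 12 monocyte-macrophage markers summed to 1269, 3599, 1648 and 1603 CPM in members and 2443, 4502, 3429 and 2713 CPM in the other mature neutrophils. Of these, Mrc1, Arg1 and Ms4a7 were at 0 in the members of every library except control 2. By these markers the members were neutrophils, though the rule had itself excluded Csf1r and limited the C1q genes and Fn1 in both classes. B and plasma cell markers summed to 830.4, 451, 276 and 82.2 CPM in members and 15882, 5478, 2251 and 7540.0 CPM in the other mature neutrophils. Markers of granulocyte-monocyte progenitors came to 105, 202, 118 and 2.57 CPM in members and 5896, 4387, 2389 and 13.1 CPM in the other mature neutrophils. The comparison class therefore carried more RNA of B cells and, outside control 2, of progenitors. For this reason the classes were also compared after both were limited to barcodes with at least 10 UMIs of S100a8 and S100a9 together, at most 1 UMI of Elane, Prtn3 and Mpo together, and no UMI of a B cell, T cell or Mki67 marker. These are called the cleaned classes and were chosen after seeing the data.

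Activated neutrophils made up 2.03% (95% Wilson interval 1.56 to 2.63) of mature neutrophils in adenosine 1 and 2.13% (95% Wilson interval 1.60 to 2.84) in adenosine 2. They made up 2.80% (95% Wilson interval 2.26 to 3.47) in control 1 and 65.7% (95% Wilson interval 64.1 to 67.2) in control 2. These intervals cover counting error only. The first 3 libraries lay close together, and control 2 lay far above them. As a share of all kept cells, the values were 0.621% and 0.513% in the adenosine libraries, against 0.859% and 35.7% in the control libraries. Of mature neutrophils, the adenosine libraries averaged 2.08% ± 0.0754 and the control libraries 34.2% ± 44.5 (SD, n = 2 each). The difference was −32.2 percentage points, with p = 0.33 in a two-sided exact permutation test, the smallest p that 2 libraries against 2 allow. Without control 2 the difference was −0.725 percentage points, so its size rests on that library.

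**Figure D1:**
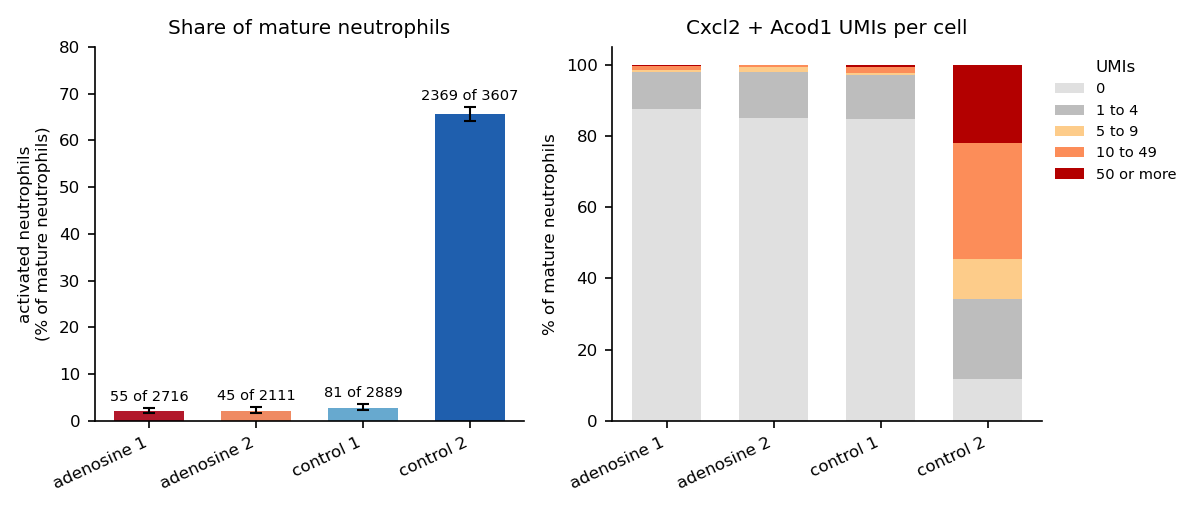
Left, activated neutrophils as a percentage of mature neutrophils in each library, with bars for the share, error bars for the 95% Wilson interval and cell numbers above. Right, all mature neutrophils of each library split by their UMIs of Cxcl2 and Acod1 together. In control 2 the share was 65.7%, against 2.03% to 2.80% in the other libraries.

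The gap did not sit at the cut-off alone. Mature neutrophils with 0 UMIs of either gene made up 87.5, 85.2, 84.7 and 11.8% of the class, and 10, 2, 21 and 789 mature neutrophils held 50 or more. At exactly 5 UMIs, just inside the rule, stood 7, 9, 6 and 108 barcodes, and at 4 UMIs, just outside it, stood 7, 9, 12 and 98. Those just inside had 5339, 2305, 6263 and 4237 CPM of Il1b, and those just outside had 3173, 2166, 3282 and 4524 CPM. UMIs of the pair also appeared in B cells, which should lack both genes: 2.96, 0.702, 2.69 and 33.8% of them held at least 1, at a median depth of 4654, 3929.5, 4648 and 3974 UMIs, while 0, 1, 0 and 1 B cells held 5 or more. After thinning each barcode to 1000 UMIs, the share of mature neutrophils that met the rule was 1.27, 0.684, 2.13 and 49.3%, so control 2 also stood apart at equal depth.

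Since the rule chose on Cxcl2 and Acod1, their levels are a description. Members had 8115, 1910.1, 12384 and 16302 CPM of Cxcl2, against 24.4, 5.04, 19.7 and 272 CPM in the other mature neutrophils. Acod1 reached 3452, 3878, 4184 and 3550.1 CPM in members, against 16.0, 46.8, 39.1 and 227 CPM in the other mature neutrophils. Acod1 was therefore level across the 4 libraries, while Cxcl2 was lowest in adenosine 2. Both genes were detected in 35, 17, 67 and 2146 members, Acod1 without Cxcl2 in 6, 27, 7 and 69, and Cxcl2 without Acod1 in 14, 1, 7 and 154. In adenosine 2, members with Acod1 and no Cxcl2 UMI were thus the larger group, at 60.0% of its members.

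The promoter sequences of both rule genes are shown because NF-kappaB is the transcription factor that the activating receptors share, and those of Cxcl3, Csf1 and Nfkbia as examples chosen for holding a match to its site. Each is the 250 bases before the transcription start in RefSeq, build GRCm38.p6, written 5′ to 3′ on the gene's own strand. Capitals mark a match to the consensus NF-kappaB site, searched on both strands. The windows are chr5:90903649-90903898 (+ strand) for Cxcl2, chr14:103046762-103047011 (+ strand) for Acod1, chr5:90785851-90786100 (+ strand) for Cxcl3, chr3:107760470-107760719 (− strand) for Csf1 and chr12:55492648-55492897 (− strand) for Nfkbia.
Cxcl2: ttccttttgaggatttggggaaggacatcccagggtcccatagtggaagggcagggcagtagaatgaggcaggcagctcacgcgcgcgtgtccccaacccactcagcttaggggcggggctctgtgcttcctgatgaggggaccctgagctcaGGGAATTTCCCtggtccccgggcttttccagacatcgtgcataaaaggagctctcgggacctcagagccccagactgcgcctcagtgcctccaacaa
Acod1: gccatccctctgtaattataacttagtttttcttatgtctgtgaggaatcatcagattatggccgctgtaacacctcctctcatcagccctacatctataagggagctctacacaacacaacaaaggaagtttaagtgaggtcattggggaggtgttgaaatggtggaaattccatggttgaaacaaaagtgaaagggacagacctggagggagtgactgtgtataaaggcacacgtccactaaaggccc
Cxcl3: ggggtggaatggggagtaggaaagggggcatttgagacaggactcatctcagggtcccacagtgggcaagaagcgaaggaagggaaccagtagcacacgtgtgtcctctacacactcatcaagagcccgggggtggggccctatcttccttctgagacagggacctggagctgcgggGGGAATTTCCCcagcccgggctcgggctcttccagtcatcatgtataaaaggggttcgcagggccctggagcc
Csf1: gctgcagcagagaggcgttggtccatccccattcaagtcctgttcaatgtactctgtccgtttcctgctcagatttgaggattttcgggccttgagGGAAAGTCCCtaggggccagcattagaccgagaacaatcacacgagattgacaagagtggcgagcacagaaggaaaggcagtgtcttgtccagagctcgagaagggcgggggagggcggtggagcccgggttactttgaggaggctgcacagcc
Nfkbia: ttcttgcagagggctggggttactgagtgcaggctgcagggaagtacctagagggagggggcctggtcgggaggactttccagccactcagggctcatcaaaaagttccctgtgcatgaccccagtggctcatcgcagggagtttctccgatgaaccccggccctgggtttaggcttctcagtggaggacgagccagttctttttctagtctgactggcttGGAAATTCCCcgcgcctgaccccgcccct

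The match began 97 bases before the start in Cxcl2, where the forward and reverse matches overlap in 1 run of capitals, 73 bases before it in Cxcl3, 154 bases in Csf1 and 29 bases in Nfkbia. The windows of Acod1, Il1b, Ccl3 and Asprv1 held none, and 1 of 3 windows of Ccrl2 held a match. Of all 32851 promoter windows of this length, 1281 (3.90%) held a match. Among genes tested between activated and other mature neutrophils, 511 of 9513 with a window held one (5.37%), against 81 of 877 of those higher in activated neutrophils (9.24%) and 38 of 868 of those lower (4.38%). In the list of NF-kappaB components and feedback genes it was 8 of 18 (44.4%). A match is a string of letters and does not show binding.

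Several genes outside the rule were graded with the number of Cxcl2 and Acod1 UMIs a mature neutrophil held, as the plot by UMI class shows. In barcodes with 0, 1 to 4, 5 to 9, 10 to 49 and 50 or more UMIs, Ccl4 stood at 281, 776, 1565, 3634 and 13936 CPM in control 2. In adenosine 1 the same classes had 19.2, 26.4, 317, 2825 and 15546 CPM. Retnlg, which encodes a resistin-like protein of resting neutrophils, ran the other way, with 20922, 21538, 15128, 5298 and 1191 CPM in adenosine 1. In adenosine 2 it was at 17195, 27975, 22733, 1975 and 1050.4 CPM, so there its members with 5 to 9 UMIs, 32 of 45, stood above the barcodes with 0. Control 2 differed from the other libraries even in barcodes with 0 UMIs of the pair. There, Il1b stood at 3304 CPM in control 2, against 447, 486 and 807 CPM in adenosine 1, adenosine 2 and control 1. B cells also held these genes more often in control 2. Before thinning, 2.37, 1.69, 3.29 and 17.6% of B cells held an Il1b UMI, and 1.78, 6.74, 2.40 and 21.6% a Ccl4 UMI. The part of RNA from other cells in the levels of control 2 was not tested. In adenosine 2, Ccl4 too was out of order, with 189 CPM at 0 UMIs and 43.6 CPM at 1 to 4.

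**Figure D2:**
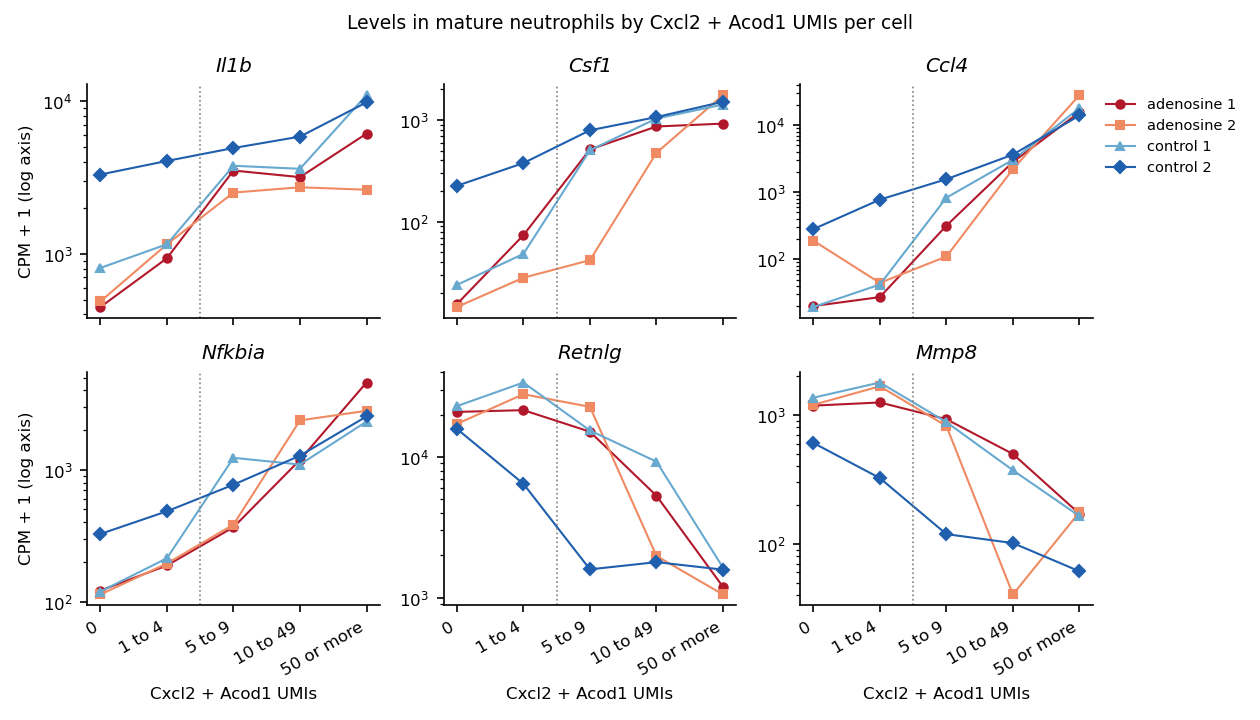
Levels of 6 genes (CPM + 1, log axis) in mature neutrophils split by their UMIs of Cxcl2 and Acod1 together (horizontal axis), with 1 line per library; barcodes right of the dotted line are the activated neutrophils. Il1b, Csf1, Ccl4 and Nfkbia were higher and Retnlg and Mmp8 lower at 50 or more UMIs than at 0 UMIs in each library.

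Activated neutrophils were next set against the other mature neutrophils of the same library. Transcripts of chemokines, of the chemokine-binding receptor Ccrl2 and of the lipopolysaccharide co-receptor Cd14 rose most. In the edgeR quasi-likelihood test on UMIs summed per class, with the library as a block, 12362 genes were tested. At a Benjamini-Hochberg adjusted p under 0.05, 1140 (9.22%) rose and 1124 (9.09%) fell, 18.3% in all. The median log2 fold change over all genes was −0.28 with TMM scaling and −0.68 with scaling by total UMIs, which called 711 higher and 2301 lower. The cleaned classes gave 728 higher (7.67%) and 559 lower (5.89%) of 9487 genes, and leaving out control 1 gave 694 higher and 501 lower. Leaving out control 2 gave 767 higher and 849 lower of 11455 genes. The list counts below are to be read against these counts over all genes. Because the same cells were sorted by Cxcl2 and Acod1 and then read for other genes, the tests say which transcripts went with that pair.

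Among CXC chemokines, 3 of 5 tested genes rose and 0 fell. Cxcl3, another CXCR2 ligand, had 765, 86.4, 1604 and 1197 CPM in activated neutrophils and 0.810, 0, 3.18 and 72.9 CPM in the other mature neutrophils (log2 fold change 8.06 ± 0.42 (SE), adjusted p = 7.06e-79). In adenosine 2 it was found in 2 of 45 activated barcodes, with 8 of its 9 UMIs in 1 of them, so that value rests on a single barcode. Cxcl10, a ligand of the T cell receptor CXCR3 that interferon induces, had 543, 154, 34.5 and 33.1 CPM in activated neutrophils and 0.405, 10.7, 2.00 and 5.19 CPM in the other mature neutrophils (log2 fold change 5.19, adjusted p = 1.38e-33). Its activated values split by treatment, as taken up below. Cxcl1 also rose (6.83, adjusted p = 2.08e-13), from few counts: it was at 78.5, 0, 9.87 and 11.6 CPM in activated neutrophils and 0, 0, 0.118 and 0.915 CPM in the other mature neutrophils.

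Of CC chemokines, 3 of 8 rose and 2 of 8 fell, with a median log2 fold change of 0.10; 2 of 5 rose and 1 of 5 fell without control 2. Ccl4 and Ccl3 encode attractants of monocytes and T cells. Ccl4 had 4597, 2150.0, 6646 and 7393 CPM in activated neutrophils and 19.9, 175, 21.1 and 607 CPM in the other mature neutrophils (log2 fold change 6.12 ± 0.41 (SE), adjusted p = 4.02e-46). Ccl3 had 2870.5, 816, 2694 and 3490.2 CPM in activated neutrophils and 22.1, 80.8, 22.6 and 316 CPM in the other mature neutrophils (log2 fold change 5.49 ± 0.37 (SE), adjusted p = 6.24e-47). Both genes were higher in activated neutrophils of each library, but the 32 of 45 members of adenosine 2 with 5 to 9 UMIs of the rule genes had only 109 CPM of Ccl4 and 82.0 CPM of Ccl3. In that library 1 barcode held 91 of 224 Ccl4 UMIs. Ccl2, the main monocyte attractant, also rose (2.51, adjusted p = 0.00743; 0.0573 with scaling by total UMIs) but was scarce, at 0, 0, 4.93 and 48.0 CPM in activated neutrophils and 0.608, 1.03, 0.353 and 11.6 CPM in the other mature neutrophils. Ccrl2 binds the attractant chemerin without signalling and rose by a log2 fold change of 6.21 (adjusted p = 4.36e-72).

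Of cytokines and growth factors, 13 of 16 tested genes rose and 0 fell (median log2 fold change 2.36); 10 of 13 rose in the cleaned classes and 8 of 12 without control 2. Il1b, the precursor of the fever cytokine IL-1beta, had 3832, 2572, 5635 and 7279 CPM in activated neutrophils, against 493, 549.6, 846 and 3798 CPM in the other mature neutrophils (log2 fold change 2.53 ± 0.33 (SE), adjusted p = 1.97e-12). The classes overlapped between libraries, since the other mature neutrophils of control 2 held more Il1b than the activated ones of adenosine 2, yet within each library activated neutrophils were higher. Csf1, the macrophage and osteoclast growth factor, had 778, 240.0, 1031 and 1199.8 CPM in activated neutrophils, against 20.2, 14.9, 25.8 and 324 CPM in the other mature neutrophils (log2 fold change 4.46 ± 0.33 (SE), adjusted p = 3.69e-39). Il1rn, which encodes the natural blocker of the IL-1 receptor, rose beside Il1b (4.20, adjusted p = 1.85e-36). Tnf had 484, 278, 163 and 280.5 CPM in activated neutrophils, against 25.8, 46.0, 33.7 and 109.8 CPM in the other mature neutrophils (2.90, adjusted p = 3.07e-21). Osm, a cytokine of the IL-6 family that acts on osteoblast precursors, rose by 2.18 (adjusted p = 3.81e-12), and Inhba, which encodes activin A, by 4.56 (adjusted p = 1.57e-21). Inhba had few counts outside control 2. In activated neutrophils of adenosine 1, 1 barcode held 34 of 62 Inhba UMIs, and those of adenosine 2 and control 1 held 1 and 5 UMIs.

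Asprv1, a protease gene given with the label as a marker, was the weakest of the named markers. It had 105, 624, 498 and 1009.8 CPM in activated neutrophils and 159, 109.6, 185 and 679 CPM in the other mature neutrophils (log2 fold change 1.38 ± 0.29 (SE), adjusted p = 5.53e-05). In adenosine 1 it was lower in activated neutrophils, against the direction of the other 3 libraries, and in the cleaned classes it no longer passed (log2 fold change 0.53, adjusted p = 0.164). DESeq2 gave it an adjusted p of 0.0583.

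**Figure D3:**
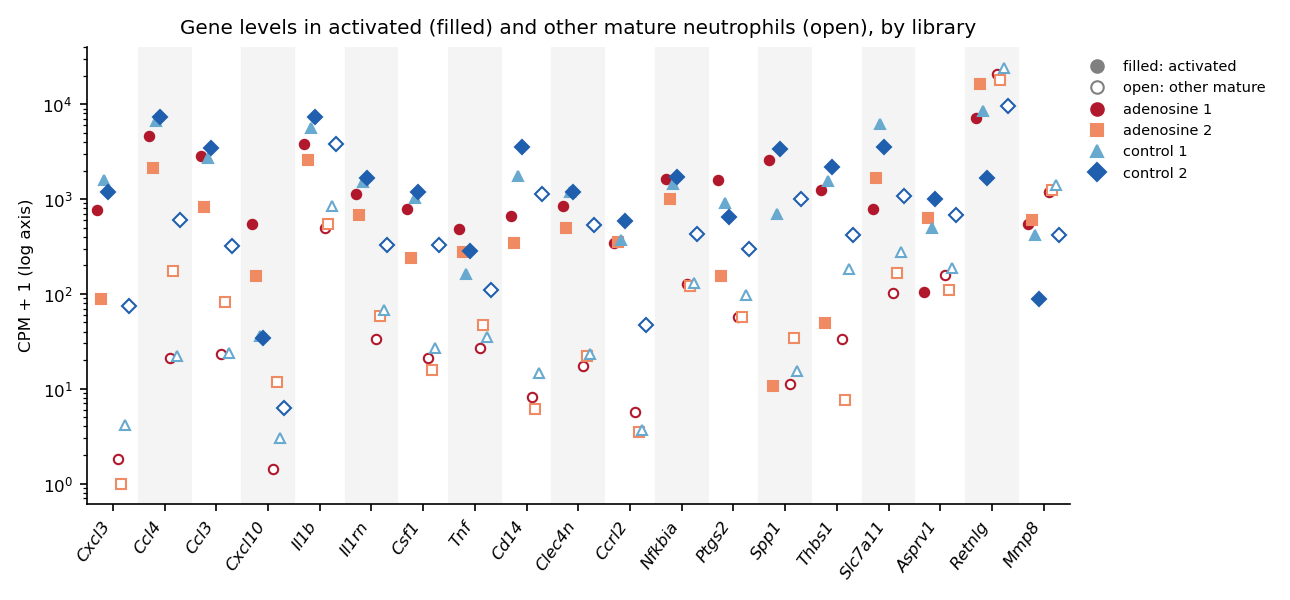
Levels of 19 genes (CPM + 1, log axis) in activated neutrophils (filled) and other mature neutrophils (open), with 1 symbol per library. Cxcl3, Ccl4, Ccl3, Cxcl10 and Ccrl2 were above every comparison value of their own library, Asprv1 and Spp1 crossed over in 1 library each, and Retnlg and Mmp8 were lower in activated neutrophils of each library.

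The genes of NF-kappaB signalling moved as a group: 19 of 21 tested rose and 0 fell, with a median log2 fold change of 1.94. In the cleaned classes 16 of 21 rose, and 18 of 21 without control 2. Nfkbia encodes the inhibitor IkappaB-alpha, which NF-kappaB itself induces. It had 1622, 998, 1456 and 1703 CPM in activated neutrophils, against 127, 120.0, 129 and 429 CPM in the other mature neutrophils (log2 fold change 3.37 ± 0.31 (SE), adjusted p = 1.27e-25), with no overlap between the classes. Tnfaip2, Ier3 and Birc3, which NF-kappaB also induces, rose by 2.28, 2.75 and 2.05 on the log2 scale (adjusted p = 2.69e-13, 1.33e-18 and 1.04e-11). The subunit gene Nfkb1 rose by 1.14 (adjusted p = 3.24e-04).

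Receptors for the signals that activate neutrophils rose too. Of pattern receptors and lectins, 11 of 17 tested genes rose and 0 fell (median 1.81, 10 of 17 in the cleaned classes). Cd14, which hands lipopolysaccharide to TLR4, had 654, 346, 1766 and 3528 CPM in activated neutrophils, against 7.09, 5.17, 13.8 and 1128 CPM in the other mature neutrophils (log2 fold change 5.78 ± 0.39 (SE), adjusted p = 6.24e-47). The lectin receptors Clec4n, Clec4e and Clec4d, which bind fungal and mycobacterial sugars and lipids, rose by 4.70, 3.22 and 2.31 (adjusted p = 2.30e-39, 7.25e-23 and 1.04e-11). The inflammasome sensor Nlrp3 rose by 2.25 (adjusted p = 1.04e-13). Of cytokine receptors, 9 of 14 rose and 0 fell, 5 of 13 in the cleaned classes and 6 of 14 without control 2. Il1r2, a decoy receptor that binds IL-1 without signalling, had 1262, 499, 1712 and 1498 CPM in activated neutrophils, against 216, 111, 293 and 883 CPM in the other mature neutrophils (2.32, adjusted p = 4.43e-13). Its partner chain Il1rap and the TNF receptor gene Tnfrsf1b rose by 2.90 and 2.34 (adjusted p = 2.64e-19 and 8.53e-15). Of chemoattractant receptors and adhesion genes, 9 of 17 rose, 5 of 17 in the cleaned classes. Among them the hyaluronan receptor gene Cd44 rose by 1.85 (adjusted p = 4.67e-08), while Cxcr4, the receptor that returns aged neutrophils to marrow, rose by 1.21 (adjusted p = 2.17e-04) but not in the cleaned classes or in barcodes with 2000 to 6000 UMIs (adjusted p = 0.149 and 0.234).

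Of immediate-early and dissociation response genes, 13 of 21 rose and 0 fell (median 1.12, 10 of 20 in the cleaned classes); without control 2, 13 of 20 rose and 2 of 20 fell. Tissue digestion raises many of these genes, and its part in the other results was not tested. Dusp1, a phosphatase that switches off MAP kinases, had 928, 653, 2008 and 1781 CPM in activated neutrophils, against 253, 157, 211 and 579 CPM in the other mature neutrophils (2.51, adjusted p = 6.03e-15). The AP-1 gene Junb rose by 1.14 (adjusted p = 9.05e-04) but not in the cleaned classes or in barcodes with 2000 to 6000 UMIs (adjusted p = 0.259 and 0.288). Of hypoxia and glycolysis genes, 16 of 24 rose and 0 fell (median 1.08); in the cleaned classes 15 of 24 rose and 2 of 24 fell, and without control 2 14 of 24 rose and 1 of 24 fell. The lactate exporter gene Slc16a3 rose by 2.00 (adjusted p = 8.52e-11) and Aldoa, a glycolytic aldolase, by 1.07 (adjusted p = 0.00128), but in barcodes with 2000 to 6000 UMIs Aldoa was at 0.59 (adjusted p = 0.0843). Gapdh, of the same pathway, missed the threshold (log2 fold change 0.63, adjusted p = 0.115; 0.0466 without the highest Scrublet doublet scores).

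Genes known from neutrophils in tissue and tumours rose in 12 of 14 tested cases, with a median log2 fold change of 2.82; 12 of 13 rose in the cleaned classes and 12 of 13 without control 2. Cd274 encodes the checkpoint ligand PD-L1 and had 1942, 816, 311 and 322 CPM in activated neutrophils, against 27.7, 159, 34.4 and 85.7 CPM in the other mature neutrophils (log2 fold change 3.62 ± 0.31 (SE), adjusted p = 3.87e-29). Ptgs2, the inducible cyclooxygenase of prostaglandin synthesis, had 1569, 154, 918 and 641 CPM in activated neutrophils, against 55.5, 55.8, 97.4 and 297 CPM in the other mature neutrophils (3.01, adjusted p = 7.33e-20). Among activated neutrophils, Cd274 was highest in the 2 adenosine libraries and Ptgs2 was lowest in adenosine 2. Hcar2, a receptor for niacin and beta-hydroxybutyrate, and Cstb, a cathepsin inhibitor, rose by 4.53 and 3.42 (adjusted p = 1.92e-43 and 7.50e-26). Spp1, which encodes the bone matrix protein osteopontin, had 2609, 9.60, 691 and 3401 CPM in activated neutrophils, against 10.3, 33.1, 14.3 and 1010.3 CPM in the other mature neutrophils (4.36, adjusted p = 4.05e-24). In activated neutrophils of adenosine 1, 1 barcode held 226 of 399 Spp1 UMIs. In adenosine 2 Spp1 ran against the other libraries, and DESeq2 gave it an adjusted p of 0.0526. Of matrix, coagulation and repair genes, 9 of 14 rose and 0 fell (8 of 13 in the cleaned classes). Thbs1, the matrix protein thrombospondin-1, had 1242, 48.0, 1559 and 2195 CPM in activated neutrophils, against 32.1, 6.59, 181 and 413 CPM in the other mature neutrophils (3.77, adjusted p = 4.45e-26). Olr1, a receptor for oxidised lipoprotein, rose by 3.90 (adjusted p = 1.32e-29).

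Since adenosine acts on neutrophils in part through receptors that raise cAMP, both pathways were read. Of genes for adenosine receptors and handling, 2 of 10 rose and 1 of 10 fell (2 of 9 and 2 of 9 without control 2). Over all genes 9.22% rose and 9.09% fell, so the share of this list that fell was near that of all genes. The 2 listed genes that rose encode the cell surface enzymes that turn ATP into adenosine. Entpd1 (CD39), which removes phosphates from ATP, had 876, 1008, 1712 and 1318 CPM in activated neutrophils, against 273, 302, 382 and 770.5 CPM in the other mature neutrophils (log2 fold change 1.90 ± 0.29 (SE), adjusted p = 2.51e-09). Nt5e (CD73), which makes adenosine from AMP, had 157, 0, 49.3 and 60.1 CPM in activated neutrophils, against 11.1, 10.2, 18.8 and 32.6 CPM in the other mature neutrophils (2.03, adjusted p = 7.68e-06). Entpd1 was higher in activated neutrophils of each library, whereas Nt5e was at 0 in the activated neutrophils of adenosine 2. Of cAMP signalling and response genes, 8 of 17 rose and 2 of 17 fell (5 of 17 and 1 of 17 without control 2). The orphan nuclear receptors Nr4a3 and Nr4a1, which cAMP and many other signals induce, rose by 5.21 and 3.56 (adjusted p = 2.04e-44 and 9.67e-27), and the cAMP phosphodiesterase Pde4b by 1.71 (adjusted p = 2.40e-08). In adenosine 2, all 6 Nr4a3 UMIs of activated neutrophils came from 1 barcode. The prostaglandin and leukotriene pathway moved both ways, with 3 of 12 higher and 2 of 12 lower (2 of 11 and 1 of 11 without control 2).

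Of genes for NADPH oxidase, redox and nitric oxide, 9 of 18 rose and 0 fell; in the cleaned classes 9 of 18 rose and 2 of 18 fell. Slc7a11, the cystine importer that feeds glutathione synthesis, had 791, 1661, 6172 and 3506 CPM in activated neutrophils, against 100.4, 164, 273 and 1076 CPM in the other mature neutrophils (log2 fold change 3.43 ± 0.33 (SE), adjusted p = 1.69e-22). Of survival and death genes, 11 of 20 rose and 1 of 20 fell (10 of 20 and 0 in the cleaned classes). The risen genes held opposite roles: Mcl1, which keeps neutrophils alive, rose by 1.43 (adjusted p = 2.36e-05), and Bcl2l11, which encodes the death inducer Bim, by 2.86 (adjusted p = 1.13e-20). The list holds the Bcl2a1 copies, nearly identical genes whose reads could be split between them. Of transcription factors, 12 of 20 rose and 0 fell, and 8 of 19 rose and 2 of 19 fell in the cleaned classes. Cebpb, which drives emergency granulocyte production, and Nfe2l2 (NRF2), the factor of the antioxidant response, rose by 2.22 and 2.26 (adjusted p = 8.34e-11 and 2.67e-13).

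Some genes of secondary and tertiary granules, made while neutrophils mature in marrow, were lower in activated neutrophils. Lcn2, also on this list, did not pass in all barcodes (log2 fold change −0.02, adjusted p = 0.97). The rule itself capped Camp, Ngp and Ltf in both classes. Of 13 tested, 5 fell and 0 rose (median −0.61); 10 of 13 fell in the cleaned classes and 2 of 13 without control 2. Mmp8, the neutrophil collagenase, had 549, 595, 414 and 87.1 CPM in activated neutrophils, against 1187, 1243, 1409 and 419 CPM in the other mature neutrophils (log2 fold change −1.25 ± 0.28 (SE), adjusted p = 1.59e-04). Retnlg had 7147, 16499.7, 8398 and 1675 CPM in activated neutrophils, against 20981, 18218, 24241 and 9649.7 CPM in the other mature neutrophils (log2 fold change −1.14 ± 0.37 (SE), adjusted p = 0.0148; adjusted p = 0.163 without adenosine 1, 0.183 without control 1 and 0.0585 without control 2). The gelatinase gene Mmp9 missed the threshold (log2 fold change −0.32, adjusted p = 0.472) but passed in the cleaned classes (−1.12, adjusted p = 8.08e-05) and in barcodes with 2000 to 6000 UMIs (−1.30, adjusted p = 4.65e-06). Among the 10 genes that fell most in the cleaned classes, Itgb2l fell by 2.76 and Ceacam10 by 2.18 on the log2 scale (adjusted p = 4.08e-08 and 9.91e-08).

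Among the deepest falls before cleaning were genes best known from progenitors and plasma cells. Of primary granule genes, made in promyelocytes, 6 of 7 fell with a median of −4.16. Elane, neutrophil elastase, had 58.8, 76.8, 49.3 and 0.386 CPM in activated neutrophils, against 2229, 1830.1, 922 and 0.610 CPM in the other mature neutrophils (log2 fold change −4.16, adjusted p = 4.55e-24). In the cleaned classes 0 of 7 fell, and the log2 fold change of Elane was 0.21 (adjusted p = 0.851), but cleaning itself limits the UMIs of Elane, Prtn3 and Mpo, so this loss was set at least in part by that filter. In barcodes with 2000 to 6000 UMIs, a range that uses none of these genes, the log2 fold change of Elane was −0.10 (adjusted p = 0.925). Of cell cycle genes, 20 of 25 fell, and 1 of 20 in the cleaned classes. Among the 10 genes that fell most in all barcodes were Jchain, Tox, Diaph3, Prtn3, Myb, Mecom, Kcnq5, Elane and Adgrl4. Jchain, a plasma cell gene, Prtn3 and Elane were themselves used for cleaning, and of the others named here only Kcnq5 passed in the cleaned classes (log2 fold change −3.80, adjusted p = 0.0023). Mitochondrially encoded genes fell in 8 of 13 cases, and in 0 of 12 in the cleaned classes. Of MHC class II presentation genes, 5 of 10 fell and 2 of 10 rose; in the cleaned classes 2 of 9 fell and 1 of 9 rose, and without control 2 2 of 10 fell and 1 of 10 rose. Cd74, the MHC class II invariant chain, had 144, 86.4, 113 and 117 CPM in activated neutrophils, against 361, 641, 394 and 725 CPM in the other mature neutrophils (−1.82, adjusted p = 2.02e-08), while the costimulatory ligand gene Cd80 rose by 2.59 (adjusted p = 7.66e-17).

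**Figure D4:**
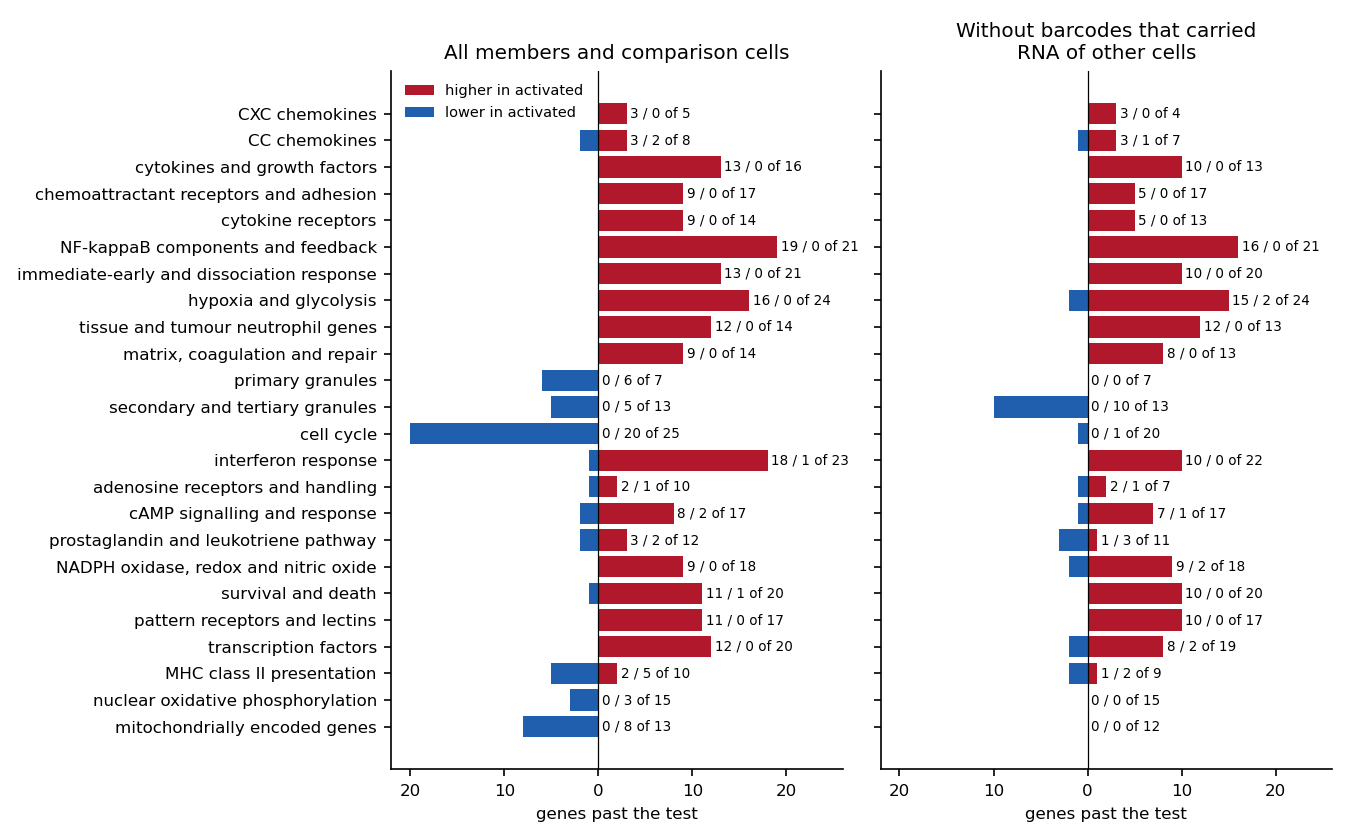
Number of genes of each list past the edgeR test (adjusted p under 0.05) between activated and other mature neutrophils, higher to the right and lower to the left, in all barcodes (left) and in the cleaned classes (right); labels give higher / lower of tested. Cytokine, NF-kappaB and tissue neutrophil genes were called higher in both panels, whereas the falls of primary granule, cell cycle and mitochondrially encoded genes were nearly all lost after cleaning, which limits Elane, Prtn3, Mpo and Mki67 itself.

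Interferon response genes rose in 18 of 23 cases and fell in 1 of 23 (median 1.37). In the cleaned classes 10 of 22 rose, and 15 of 22 without control 2. The listed genes summed to 6905, 13495, 4520 and 8361 CPM in activated neutrophils. In the other mature neutrophils they summed to 2067, 4350, 2878 and 8135 CPM, so in control 2 the sums of the classes were close. Slfn4, which encodes a Schlafen protein of myeloid cells, had 281, 538, 286 and 807 CPM in activated neutrophils, against 61.0, 164, 150.4 and 537 CPM in the other mature neutrophils (1.65, adjusted p = 1.19e-07). Barcodes with at least 3 UMIs of Isg15, Ifit1, Ifit3 and Rsad2 together made up 18.2, 17.8, 6.17 and 14.3% of activated neutrophils, against 0.338, 6.78, 1.60 and 7.43% of the other mature neutrophils. The share was higher among activated neutrophils in each library, but rested on 10, 8 and 5 activated barcodes in adenosine 1, adenosine 2 and control 1. In adenosine 1 the 95% Wilson interval ran 10.2 to 30.3% in activated neutrophils and 0.178 to 0.642% in the other mature neutrophils. Such intervals cover counting error only, since barcodes are not replicates, and these counts were not thinned to equal depth.

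Between treatments, the activated neutrophils of the adenosine libraries differed from those of the control libraries in few genes. Genes for guanylate-binding proteins, which interferon-gamma is known to induce, led those that were higher. In the edgeR quasi-likelihood test over 4 libraries, 13 of 2790 genes (0.466%) were higher and 2 (0.0717%) lower, 0.538% in all, at an adjusted p under 0.05; 375 had an unadjusted p under 0.05. Scaling by total UMIs called 11 higher and 0 lower. The members compared also differed in make-up. Both Cxcl2 and Acod1 were detected in 63.6 and 37.8% of members of the adenosine libraries, against 82.7 and 90.6% in the control libraries. In adenosine 2, 32 of 45 members held only 5 to 9 UMIs of the pair. The part of this make-up in the differences between treatments was not tested. In data simulated at the fitted spread, the test found 0 of 200 genes changed 2-fold and 126 of 200 changed 4-fold. Guanylate-binding proteins are GTPases that attack the membranes of intracellular microbes. Gbp5 had 667 and 269 CPM in adenosine libraries, against 0 and 6.43 CPM in control libraries (log2 fold change 6.11 ± 0.69 (SE), adjusted p = 0.00557). Gbp2 had 955 and 1622 CPM in adenosine libraries, against 4.93 and 35.5 CPM in control libraries (log2 fold change 5.41 ± 0.71 (SE), adjusted p = 0.00879). Gbp7 had 203 and 365 CPM in adenosine libraries, against 9.87 and 12.6 CPM in control libraries (4.34, adjusted p = 0.00879). Both adenosine values lay far above both control values for each of the 3 genes. Irf1, a transcription factor that interferons induce, had 804 and 662 CPM in adenosine libraries, against 93.7 and 61.0 CPM in control libraries (3.16, adjusted p = 0.00978). Other higher genes were Igtp, Irgm2 and Olfr56, the chemokine Cxcl10, the peptide transporter Tap1, the feedback inhibitor Socs1, and Dtx3l and Parp14, with log2 fold changes of 2.37 to 4.40. Igtp shares a strand and position with Irgm2, and Olfr56 with Ifi47, so their counts are uncertain.

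The UMIs of these genes were spread unevenly over barcodes. Gbp5 was found in 13 activated barcodes of adenosine 1 and 8 of adenosine 2, against 0 of control 1 and 19 of control 2, and 1 barcode held 40 of 102 and 11 of 28 Gbp5 UMIs in the adenosine libraries. For Irf1, 1 barcode held 42 of 123 UMIs in adenosine 1. Gbp2 was found in 18 activated barcodes of adenosine 1 and 33 of adenosine 2, against 1 of control 1 and 128 of control 2, and the strongest barcode held 27 of 146 and 23 of 169 Gbp2 UMIs in the adenosine libraries. Cxcl10 was found in fewer barcodes, with 24 of 83 and 10 of 16 UMIs in 1 barcode of each adenosine library and all 7 UMIs of control 1 in 1 barcode. The other mature neutrophils had 11.0 and 282 CPM of Gbp2 in adenosine libraries, against 17.3 and 23.8 CPM in control libraries. In the comparison class adenosine 2 alone was high in Gbp2, whereas among activated neutrophils both adenosine libraries were. In adenosine 2, Irf1 was found in 55.6% of activated and 52.8% of other mature neutrophils. For Tap1 these shares were 35.6 and 44.6%, for Gbp7 42.2 and 33.3%, for Igtp 40 and 25.1%, and for Irgm2 31.1 and 25.8%. These genes were thus not particular to activated neutrophils there. In adenosine 1 each was found more often in activated neutrophils, Irf1 for example in 49.1 against 25.5%. Of the 15 genes called between treatments, 6 were also called without control 2, among them Gbp5, Gbp2, Igtp, Gbp7 and Irgm2, of 15 calls there. The cleaned classes called 27 of 2337 genes higher (1.16%) and 6 lower (0.257%), 1.41% in all, and the 15 were among them. Gbp5, Gbp2, Igtp and Gbp7 passed under each alternative that tested them in this comparison; Gbp5 was not tested in barcodes with 2000 to 6000 UMIs.

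The 2 genes lower with adenosine were G0s2, an inhibitor of fat breakdown, and Cxcr5, a chemokine receptor best known from B cells. G0s2 had 242 and 211 CPM in adenosine libraries, against 1322 and 1424 CPM in control libraries (log2 fold change −2.75 ± 0.49 (SE), adjusted p = 0.033). Cxcr5 had 6.54 and 0 CPM in adenosine libraries, against 78.9 and 134 CPM in control libraries (−5.03, adjusted p = 0.0478). Neither was called without control 2. Of the 24 lists, only interferon response (4 of 16 tested higher, median 1.06) and CXC chemokines (Cxcl10) held a gene past this test, against a median of 0.02 over all genes. In the cleaned classes Atf3 of the immediate-early list and Cd14 of the tissue neutrophil and pattern receptor lists also passed as lower, and Cd177 of the granule list as higher (−2.86, −2.49 and 3.53 on the log2 scale, adjusted p = 0.0252, 0.0404 and 0.0393), genes named after their values were seen. Not every listed gene entered the test between treatments. Over all members it took in 9 of 22 cytokine, 18 of 21 NF-kappaB, 23 of 25 hypoxia, 3 of 12 adenosine and 11 of 17 cAMP genes. Most of the adenosine list was thus not tested. No tested gene of the cytokine, NF-kappaB, hypoxia, adenosine or cAMP lists passed over all members or in the cleaned classes. Il1b, for example, had 3832 and 2572 CPM in adenosine libraries, against 5635 and 7279 CPM in control libraries (log2 fold change −1.18 ± 0.64 (SE), adjusted p = 0.468). Cd14 had 654 and 346 CPM in adenosine libraries, against 1766 and 3528 CPM in control libraries (−2.60, adjusted p = 0.102). Neither passed, though for both genes the groups did not overlap, as for 1215 of the 2790 genes tested (43.5%).

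**Figure D5:**
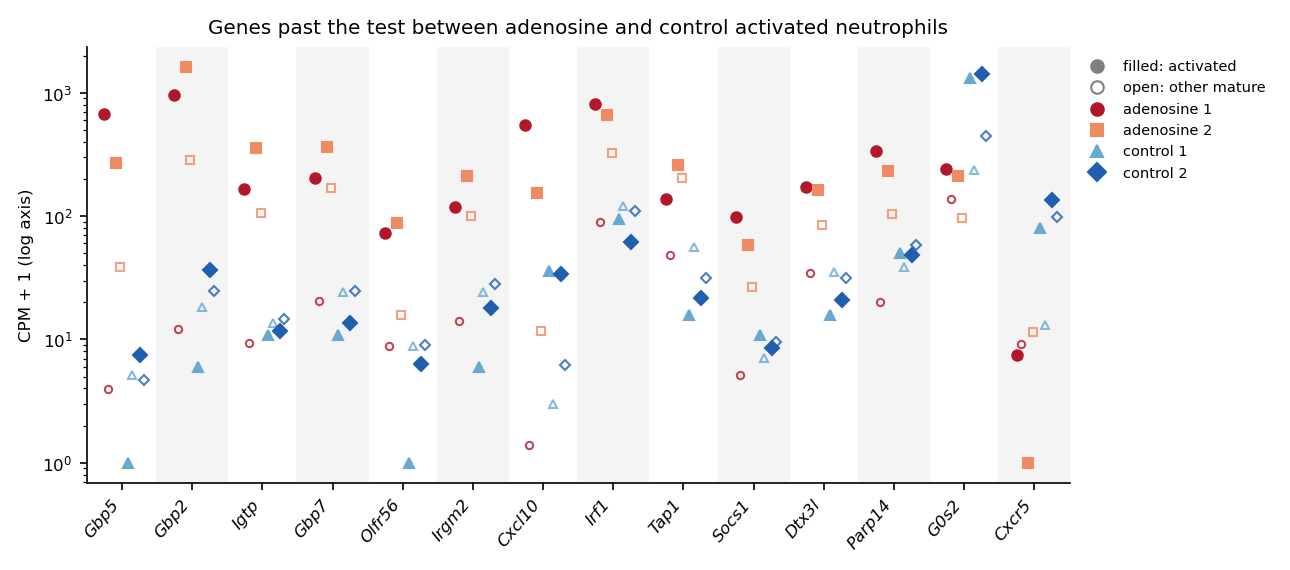
Levels (CPM + 1, log axis) of 14 of the 15 genes past the edgeR test between adenosine and control activated neutrophils, in activated (filled) and other mature neutrophils (open) of each library. The 12 higher genes plotted were above both control values in both adenosine libraries, and G0s2 and Cxcr5 were below both; of all 2790 genes tested, 1215 (43.5%) did not overlap between the groups.

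Whether the step from other mature to activated neutrophils differed by treatment was asked with the class by treatment term of the edgeR test. It called 25 of 12362 genes higher (0.202%) and 8 lower (0.0647%), 0.267% in all, while DESeq2 called 0 (256 with an unadjusted p under 0.05). Scaling by total UMIs called 38 higher and 3 lower. Gbp5, Gbp2, Igtp and Gbp7 were among those higher, with differences of 4.40, 3.87, 2.90 and 2.77 on the log2 scale (adjusted p = 1.04e-04, 5.40e-06, 0.0195 and 0.0122). In the cleaned classes Gbp2 alone of these 4 passed. None of the 4 passed without adenosine 1, where the differences were 1.81 to 2.09, and only Gbp5 and Gbp2 passed without control 1 or without control 2. The 6 highest, Ddr1, Atp1b1, Kynu, Grm8, Lifr and Blnk, each rested on 1 barcode of adenosine 1. The strongest barcode held 10 of 10 UMIs for Ddr1 and 17 of 18 for Lifr in that class. Whether it was the same barcode for the 6 genes was not tested. Among those lower, Mpp7, which encodes a scaffold protein of cell junctions, had 105 and 76.8 CPM in activated neutrophils of adenosine libraries, against 923 and 274 CPM in those of control libraries. The other mature neutrophils had 52.4 and 39.9 CPM of Mpp7 in adenosine libraries, against 36.4 and 91.5 CPM in control libraries (difference −2.49 ± 0.59 (SE), adjusted p = 0.0168). The call was lost under 7 of 10 alternatives, among them leaving out control 1, where the difference was −1.11.

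Monocytes and macrophages also express Cxcl2 and Acod1, so activated neutrophils were set against barcodes with at least 5 UMIs of the pair, Csf1r and no Csf3r. Only adenosine 1 and control 2 held at least 20 of these, 20 and 156, so the values below are of those 2 libraries in that order. The macrophage barcodes were deeper, with a median of 5184.5 and 7771.5 UMIs, against 2300 and 2839 UMIs in activated neutrophils. Their median UMIs of the pair were 12.5 and 19, against 12 and 30 in activated neutrophils. The edgeR test with the library as a block called 730 of 7335 genes higher (9.95%) and 1007 lower (13.7%), 23.7% in all, and scaling by total UMIs 503 higher and 1328 lower. Markers of each lineage were among the genes that differed most. Nlrp12, an innate sensor of granulocytes, had 111 and 125 CPM in activated neutrophils and 0 and 1.43 CPM in the macrophages (log2 fold change 7.22 ± 0.93 (SE), adjusted p = 3.86e-12). Cd101, a membrane protein of mature neutrophils, had 235 and 76.2 CPM in activated neutrophils and 0 and 2.14 CPM in the macrophages (6.18, adjusted p = 1.19e-11). Stfa2, of the neutrophil stefin cluster, had 412 and 52.2 CPM in activated neutrophils and 0 and 0 CPM in the macrophages. Its copies are nearly identical, so its count is uncertain. On the macrophage side, Mmp12, the macrophage elastase, had 0 and 0.643 CPM in activated neutrophils and 3718 and 235 CPM in the macrophages (−8.47, adjusted p = 8.57e-12), and Arg1, which breaks down arginine, had 0 and 4.12 CPM in activated neutrophils and 2300.0 and 1732 CPM in the macrophages (−8.33, adjusted p = 1.08e-11).

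The chemokines and cytokines of the 2 cell types differed in both directions. Of CC chemokines, 2 of 7 were higher and 4 of 7 lower in activated neutrophils (median −2.16), and of cytokines and growth factors 5 of 13 were higher and 3 of 13 lower (median 1.57). Ccl4 had 4597 and 7393 CPM in activated neutrophils and 839.6 and 1433 CPM in the macrophages (log2 fold change 2.80 ± 1.10 (SE), adjusted p = 0.0473). Csf1 had 778 and 1199.8 CPM in activated neutrophils and 233 and 160.1 CPM in the macrophages (2.76, adjusted p = 0.00579). Both were higher in activated neutrophils of both libraries. Because the macrophages were deeper, the same cut-off let in barcodes with a lower share of the pair. The part of this in the gaps of Ccl4 and Csf1 was not tested. For Cxcl3, Il1b and Spp1 the differences missed the threshold, with log2 fold changes of −0.21, 2.07 and −1.09 (adjusted p = 0.889, 0.179 and 0.501). Il1b, for example, had 3832 and 7279 CPM in activated neutrophils and 2201 and 1241 CPM in the macrophages. Of MHC class II presentation genes, 6 of 9 tested were lower in activated neutrophils and 0 higher. Of secondary and tertiary granule genes, 6 of 12 were higher and 1 of 12 lower, and of chemoattractant receptors and adhesion genes 10 of 17 were higher and 0 lower, with a median log2 fold change of −0.07 over all genes.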

How the data were processed

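Single-cell 3' RNA libraries of callus cells were read as the deposited UMI counts per gene and barcode, which the authors made with Cell Ranger 7.0.0 and bcl2fastq on build mm10, per the submitters' processing notes and the file headers; handling of intronic reads is not given in the sources used here. Barcodes had at least 200 genes and under 10% mitochondrial UMIs. Doublets were kept, and removing the highest Scrublet scores (scanpy 1.11.5) at 0.8% per 1000 barcodes was an alternative. Sums of counts per library and class, after filterByExpr and TMM scaling, entered the quasi-likelihood test of edgeR 4.0.16 (R 4.3.3; two-sided, Benjamini-Hochberg over all genes tested, threshold 0.05). The 11 genes of the rule were left out of the counts. DESeq2 1.42.0 was an alternative. The fits were tested on simulated data with 200 changed genes. Named genes were the 10 largest rises and falls past the test with at least 50 CPM and 1 direction in every library, Il1b, Csf1, Asprv1, and up to 6 abundant genes per list; between treatments and against macrophages, the 6 largest in each direction. Predicted genes and immunoglobulin segments were left out; the remaining genes called between treatments, the 10 largest falls of the cleaned classes, Irf1 and the chemokine and cytokine levels set against macrophages were named after their values were seen. Of the genes this rule names, 2 are not reported here. The members and gene lists were chosen with earlier results of these data known.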

Additional observations from a re-analysis of the deposited data

Results flagged for a closer look

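The change from other mature to activated neutrophils differed between adenosine and control by the class by treatment term of the edgeR test in 33 genes, and each value below is that difference on the log2 scale, adenosine minus control. For the interferon-induced genes it was 4.40 for Gbp5, 3.87 for Gbp2, 2.90 for Igtp and 2.77 for Gbp7. Of 10 alternatives, the call was lost under 4 for Gbp5, 2 for Gbp2, 7 for Igtp and 6 for Gbp7, and in the cleaned classes only Gbp2 of these kept it (3.63, 2.00 and 2.34 for Gbp5, Igtp and Gbp7). Gbp2, for example, stood at 955 and 1622 CPM in activated neutrophils of the adenosine libraries, against 4.93 and 35.5 CPM in those of the control libraries, and at 11.0 and 282 CPM in the other mature neutrophils of the adenosine libraries, against 17.3 and 23.8 CPM in those of the control libraries.

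The difference was 7.44 for Ddr1, 6.07 for Atp1b1, 5.90 for Kynu, 5.03 for Grm8, and 4.93 for both Lifr and Blnk. All 10 Ddr1 UMIs and all 13 Atp1b1 UMIs of the activated neutrophils of adenosine 1 came from 1 barcode each. It was −11.75 for Rad51b and −10.84 for Cep128. Rad51b was at 0 in the activated neutrophils of every library except control 2, so these fitted values depend on the prior count and give no bound on a fold. Rad51b had 161, 102, 86.9 and 13.7 CPM in the other mature neutrophils, the class with more RNA of dividing cells and progenitors, whose part in this difference was not tested.

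For the remaining genes it was −4.48 for Gstm1, −3.19 for Olfm4, −2.92 for Prdx1 and −2.49 for Mpp7. Of 10 alternatives, the call was lost under 5 for Gstm1, 6 for Olfm4, 5 for Prdx1 and 7 for Mpp7. The difference was −0.61 for Gstm1 in barcodes with 2000 to 6000 UMIs and −1.44 in the cleaned classes, and −1.11 for Mpp7 without control 1. Olfm4, a granule protein found in a subset of neutrophils, had 19.6 and 9.60 CPM in activated neutrophils of the adenosine libraries, against 88.8 and 143 CPM in those of the control libraries. Prdx1, a peroxidase of the antioxidant response, had 65.4 and 19.2 CPM in activated neutrophils of the adenosine libraries, against 271 and 138 CPM in those of the control libraries.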

How the results depend on the processing

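Control 2 held most members, and the adenosine libraries held 55 and 45, which limits the comparison between treatments to large differences; the share could not pass any threshold with 2 libraries against 2. The number of genes called between activated and other mature neutrophils (2264) was 1359 in barcodes with 2000 to 6000 UMIs, 1350 with at least 10 UMIs of Cxcl2 and Acod1 (3 libraries), 1287 in the cleaned classes and 1195 to 1855 on leaving out 1 library. Among single genes named there, 1043 values kept direction and call, 40 lost the call, 3 gained it and 1 reversed (Elane, 0.21 in the cleaned classes). Between treatments, the 15 calls became 29 with DESeq2 (14 of the 15 among them), 160 with no filter on low counts, 7 in barcodes with 2000 to 6000 UMIs, 33 in the cleaned classes and 15 to 184 on leaving out 1 library. They became 249 with at least 10 UMIs of the pair and 81 with only members that held both genes, but both settings also drop adenosine 2, which then held 13 and 17 members, under the minimum of 20; leaving out adenosine 2 alone gave 180. These settings leave 1 adenosine library, as does leaving out adenosine 1, and it is then assumed to vary like the controls. The difference of the change (33 calls) gave 0 with DESeq2, 10 with no filter, 18 in barcodes with 2000 to 6000 UMIs, 12 in the cleaned classes and 6 to 68 on leaving out 1 library. Activated neutrophils against macrophages (1737 calls) gave 1020 with DESeq2. The cause of these shifts was not tested.

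The difference of the change reversed for genes that were each held up by 1 barcode of adenosine 1. Ddr1 was −2.40 without the highest Scrublet scores and −2.12 to 10.30 on leaving out 1 library. Atp1b1 was −5.16 in barcodes with 2000 to 6000 UMIs, −4.37 without the highest Scrublet scores, −1.53 in the cleaned classes and −3.87 to 12.30 on leaving out 1 library. Kynu was −4.99 in the cleaned classes and −4.72 to 10.81 on leaving out 1 library. Grm8 was −3.61 in barcodes with 2000 to 6000 UMIs and −4.91 in the cleaned classes. On leaving out 1 library, Lifr was −5.57 to 5.65 and Blnk −5.62 to 11.80.

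The labels do not say that a replicate number pairs libraries, and the deviations of same-numbered libraries correlated at 0.109 over 2796 genes. With the replicate number as a block, the treatment comparison called 121 genes and the share had an exact sign-flip p of 0.5. The cleaned classes and the members with both genes were chosen after seeing the data. Against macrophages, the alternatives of 2000 to 6000 UMIs, of Scrublet scores and of leaving out adenosine 1 or control 2 were not run, since fewer than 20 macrophages were left in a library.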
